A study of Homo sapiens with 14 samples.

Results

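The receptor for epidermal growth factor, EGFR, its relatives ERBB2 and ERBB3, the related receptor kinase MET, the EGFR ligands TGFA, AREG, EREG and HBEGF, and the feedback inhibitors ERRFI1 and DUSP6 were followed in KYSE510, a cell line from an esophageal squamous cell carcinoma. These 10 genes were chosen by name from the 63677 genes listed for each RNA library, because growth factor signaling of this kind is often raised in squamous carcinoma. Earlier results of these data were known when they were chosen. KYSE510 cells were transfected with small interfering RNA (siRNA), which lowers the transcript it matches, and RNA was sequenced 48 h later. In the EZH2 series the groups were siEZH2-1 and siEZH2-2, a pair of siRNAs against EZH2, the histone H3 lysine methyltransferase of Polycomb repressive complex 2, and the negative control siNC. In the LAT1 series they were siLAT1-2 and siLAT1-3 against LAT1, the large neutral amino acid transporter encoded by SLC7A5, with a separate siNC. Every group had 2 libraries, 12 in all. The groups share 1 cell line, 1 time point and the transfection itself, and no label says whether a group's libraries are from separate cultures. The p-values therefore reflect spread between libraries alone, which may be technical.

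EGFR is a cell-surface receptor that is activated when a ligand of the EGF family binds and lets it pair with another EGFR or with ERBB2 or ERBB3. ERBB2 binds no known ligand of its own, and ERBB3, which binds neuregulins, has little kinase activity and signals through its partner. The paired receptors switch on the RAS, RAF, MEK and ERK kinases and the PI3 kinase and AKT branch, and ERK signaling induces inhibitors of its own pathway, among them DUSP6 and the Sprouty proteins. In squamous epithelium the pathway is known for keeping basal cells dividing.

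The 250 bases before the annotated start are shown for the 3 genes that measured lower in all siRNA libraries of both series with a called change in each, EGFR, MET and DUSP6, and for EREG and AREG, a neighbouring pair of ligand genes on chromosome 4, the first of which differed most between the siNC groups of both tables. Each sequence is from RefSeq (GRCh38.p14), written 5' to 3' on the strand of the gene, with CG dinucleotides in capitals.
EGFR, chr7:55018767-55019016, plus strand: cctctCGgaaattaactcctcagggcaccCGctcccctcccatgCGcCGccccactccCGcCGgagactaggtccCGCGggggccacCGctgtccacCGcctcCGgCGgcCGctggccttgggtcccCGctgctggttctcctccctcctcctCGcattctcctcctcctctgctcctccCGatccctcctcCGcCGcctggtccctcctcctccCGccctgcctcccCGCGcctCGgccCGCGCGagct
MET, chr7:116671946-116672195, plus strand: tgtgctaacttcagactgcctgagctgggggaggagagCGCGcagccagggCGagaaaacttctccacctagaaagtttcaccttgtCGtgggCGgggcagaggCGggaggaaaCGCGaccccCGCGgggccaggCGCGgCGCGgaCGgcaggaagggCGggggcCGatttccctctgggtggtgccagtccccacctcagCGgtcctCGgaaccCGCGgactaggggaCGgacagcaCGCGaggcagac
DUSP6, chr12:89352502-89352751, minus strand: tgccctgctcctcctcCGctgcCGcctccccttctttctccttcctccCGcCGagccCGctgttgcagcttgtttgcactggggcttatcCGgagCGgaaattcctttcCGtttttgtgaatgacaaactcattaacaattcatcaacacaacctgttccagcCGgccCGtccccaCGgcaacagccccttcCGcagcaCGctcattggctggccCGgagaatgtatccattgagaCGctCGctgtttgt
EREG, chr4:74364895-74365144, plus strand: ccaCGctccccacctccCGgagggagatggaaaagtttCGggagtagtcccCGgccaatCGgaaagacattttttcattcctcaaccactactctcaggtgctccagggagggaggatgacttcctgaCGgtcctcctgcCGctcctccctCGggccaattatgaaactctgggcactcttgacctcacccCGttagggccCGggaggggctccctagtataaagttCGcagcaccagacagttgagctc
AREG, chr4:74444886-74445135, plus strand: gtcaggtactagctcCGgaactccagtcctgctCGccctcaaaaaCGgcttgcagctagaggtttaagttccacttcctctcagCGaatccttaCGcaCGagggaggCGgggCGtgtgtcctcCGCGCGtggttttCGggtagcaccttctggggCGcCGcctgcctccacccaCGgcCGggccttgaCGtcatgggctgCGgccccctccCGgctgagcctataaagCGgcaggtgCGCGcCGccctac
The windows of EGFR and MET held 25 and 24 CG dinucleotides and that of AREG 23. DUSP6 had 16 and EREG 11, the median of all 35116 windows in the table, whose quartiles are 3 and 23. EGFR has a second annotated start whose window (chr7:55109589-55109838) held 1 CG. A window was found for 9 of the 10 genes; ERBB3 had none. Short motifs were searched on both strands. The cyclic AMP response element TGACGTCA was found in the AREG window and in 1.65% of all windows. The TATA motif TATAAA was found in the AREG and EREG windows and in 10.7% of all. CCAAT was found in the EREG, DUSP6, ERBB2 and ERRFI1 windows and in 32.0% of all. The windows of MET, TGFA, HBEGF and the first EGFR start held none of the 5 motifs searched. These motifs also took in the AP-1 motif TGANTCA (6.57% of windows) and the ETS motif CCGGAAGT (3.42%). The second EGFR window held TGANTCA and TATAAA, and the ERBB2 window held TGANTCA and CCGGAAGT. These matches are descriptions of letters in the window.

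Levels are given in FPKM, counts scaled to gene length and sequencing depth, as the authors deposited them. The siRNA targets were lowered as labelled: EZH2 stood at 40.6% and 36.4% of siNC in the EZH2 series, and SLC7A5 at 20.3% and 26.0% of siNC in the LAT1 series. SLC7A5 also stood at 24.9% with siEZH2-1 and 78.6% with siEZH2-2, while EZH2 in the LAT1 series stood at 98.4% and 93.8% of siNC (limma adjusted p = 0.397 for the mean). The squamous keratin KRT5 averaged 490 FPKM over the EZH2 series and 468 FPKM over the LAT1 series. The squamous markers KRT14, TP63, DSG3, DSP and CDH1 averaged 13.8 to 58.0 FPKM and 19.8 to 58.4 FPKM. KRT17, a keratin of the same list, was low in the EZH2 series (2.2 FPKM) and averaged 26.6 FPKM in the LAT1 series. Of 14 fibroblast, immune and endothelial markers, COL1A1 had the highest mean, 1.23 FPKM and 2.00 FPKM. Depth estimated from the steps between low values was 21120000 to 27240000 reads or fragments per library of the EZH2 series and 12880000 to 16780000 per library of the LAT1 series. The column sums of FPKM were 258210 to 275399 and 245634 to 252774.

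In the siNC libraries of the EZH2 series the order of levels was EGFR (50.3 FPKM), MET (30.9), ERRFI1 (13.9), TGFA (11.8), ERBB3 (10.0), ERBB2 (6.73), DUSP6 (3.62), HBEGF (3.19), AREG (1.01) and EREG (0.02), in mean FPKM of 2 libraries. In the siNC libraries of the LAT1 series it was MET (55.9 FPKM), EGFR (41.9), ERRFI1 (13.9), ERBB3 (10.0), ERBB2 (7.0), TGFA (6.72), EREG (3.90), DUSP6 (2.75), HBEGF (2.29) and AREG (0.495). In neither series did the 2 libraries of a gene overlap those of its neighbour in this order. FPKM is scaled by gene length, so these orders compare genes per length.

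The siNC levels of ERBB3, ERBB2 and ERRFI1 were nearly equal in both tables, whereas those of EREG, MET and TGFA were far apart. EREG, which encodes epiregulin, stood at 0.02 FPKM in both siNC libraries of the EZH2 series and at 3.91 and 3.88 FPKM in those of the LAT1 series. On the log2(FPKM + 1) scale this is a difference of 2.26, and 230 of 12423 genes (1.85%) were at least as far apart in either direction. MET was 0.83 higher on that scale in the LAT1 series (15.8% of genes at least as far apart) and TGFA 0.72 higher in the EZH2 series (20.9%). The tables were normalized separately, so these levels are set side by side without a test.

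**Figure D1:**
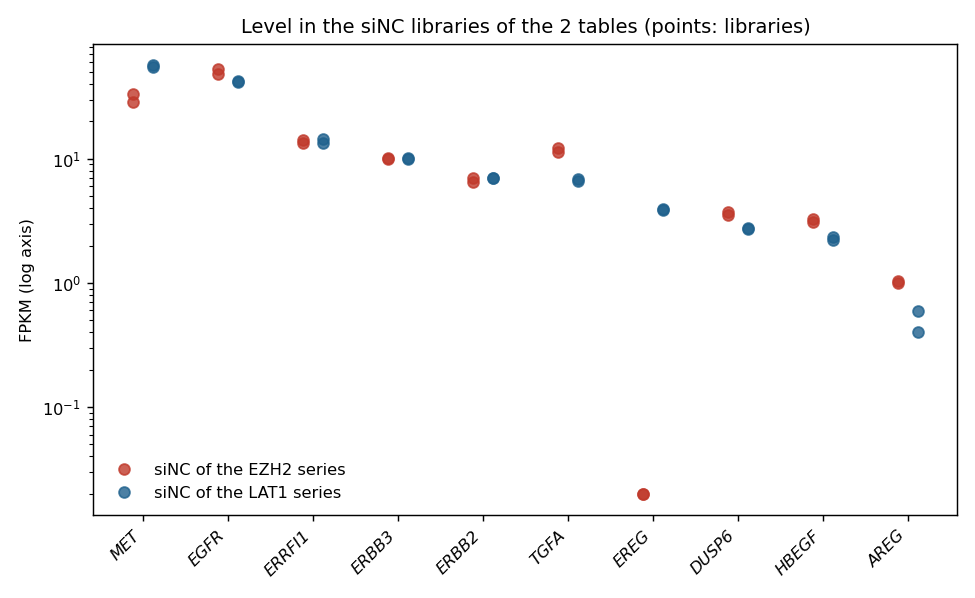
Level of the 10 genes in the siNC libraries of the EZH2 series (red) and the LAT1 series (blue), in FPKM on a log axis, 1 point per library. EREG stands at 0.02 FPKM in the EZH2 series and at 3.88 and 3.91 FPKM in the LAT1 series, while ERBB3 stands at about 10.0 FPKM in both.

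The comparison of siEZH2 with siNC asks which of these transcripts change when EZH2 is lowered. The receptors EGFR and MET and the ERK phosphatase gene DUSP6 fell with the mean of both siRNAs, to between 36.5% and 79.1% of their siNC level. ERBB2, ERBB3, TGFA, HBEGF and ERRFI1 did not pass with the mean, and AREG and EREG were too low to test. Changes were fitted with limma on log2(FPKM + 1) over all genes whose mean in a table reached 1 FPKM, and a gene was called at an adjusted p (Benjamini-Hochberg, two-sided) under 0.05. Of 8 genes tested 3 were called lower and 0 higher, against 13.0% of all 11585 genes called lower and 17.0% called higher. At an unadjusted p under 0.05 in limma, 5 were lower and 1 higher, and 4960 of all 11585 genes passed in either direction. The 4 siRNA libraries lay below both siNC libraries for EGFR, MET, HBEGF and DUSP6 and above them for ERBB2; of all genes 15.3% lay below and 25.1% above in this way.

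Lowering LAT1 asks the same of an amino acid transporter. EGFR, MET, DUSP6 and ERRFI1 fell with the mean of both siRNAs, and the ligand genes TGFA and EREG rose. Falls with the mean were smaller than in the EZH2 series for EGFR (log2 -0.29 against -0.45), MET and DUSP6, though this difference between tables was not tested. For EGFR the order turned with the column sum of FPKM as a covariate (log2 -0.32 in the LAT1 series against -0.20). Of 9 genes tested 4 were called lower and 2 higher, against 15.3% of all 11678 genes called lower and 19.3% called higher. Without siNC replicate 1 of this series 3 of the 9 were called (EGFR, MET and DUSP6). The 4 siRNA libraries lay below both siNC libraries for EGFR, MET, ERRFI1 and DUSP6, as for 16.9% of all genes, and above them for ERBB2 and EREG, as for 24.4%. With the 4 siRNA libraries taken as 1 group, 0 of the 9 passed in limma, against 11.2% of all genes. That fit puts the difference between the siRNAs into the spread. An unadjusted p under 0.05 was reached there by 5 of the 9 and by 3215 of all 11678 genes. The smallest p of an exact permutation test with 4 and 2 libraries is 0.0667, and the calls depend on limma sharing the spread among genes.

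**Figure D2:**
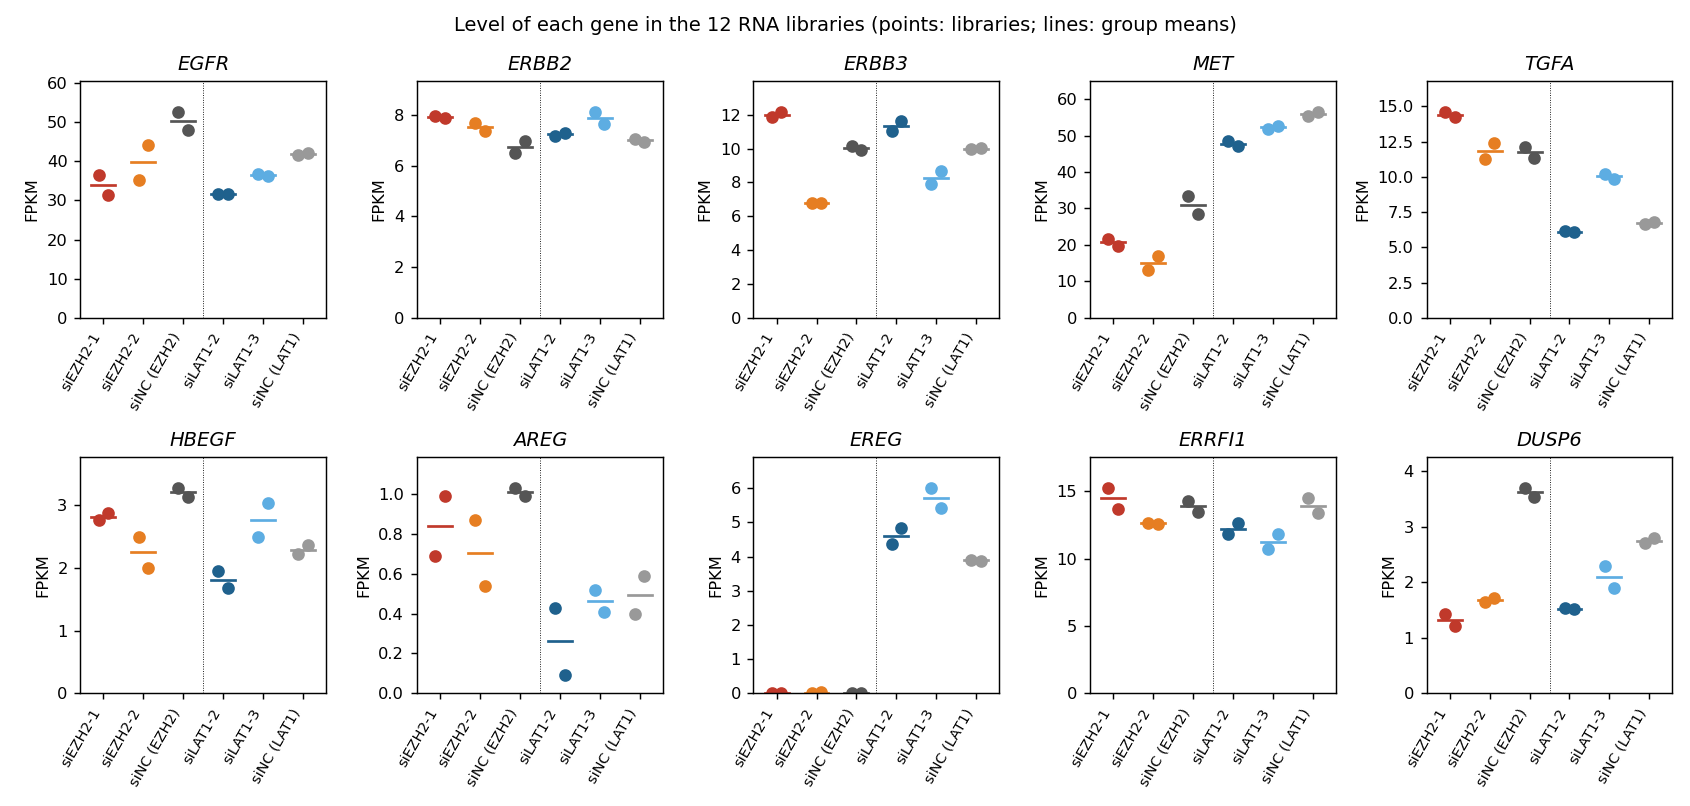
Level of each gene in FPKM (linear axes from 0) in the 12 libraries: points are libraries, lines are means of 2, and the dotted line parts the EZH2 series from the LAT1 series. The siRNA libraries of both series lie below their siNC for EGFR, MET and DUSP6, and EREG is near 0 in all libraries of the EZH2 series.

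EGFR (ENSG00000146648), the receptor itself, was at 36.62 and 31.29 FPKM with siEZH2-1, 35.31 and 44.29 FPKM with siEZH2-2 and 52.65 and 47.94 FPKM with siNC. All 4 siRNA libraries were lower than both siNC libraries, and the highest of them was 1 of the siEZH2-2 pair. The means, 34.0 ± 3.77 and 39.8 ± 6.35 FPKM (SD, n = 2), were 67.5% and 79.1% of the siNC mean of 50.3 ± 3.33 FPKM. Its log2 fold change was -0.45 ± 0.106 (SE) for the mean of both siRNAs (limma adjusted p = 0.0227). With siEZH2-1 it passed (log2 -0.56, adjusted p = 0.0196), whereas the value for siEZH2-2 was -0.34 (adjusted p = 0.091), and siEZH2-2 minus siEZH2-1 was 0.22 (95% interval -0.07 to 0.51, adjusted p = 0.280). In bulk RNA, fewer cells that make a transcript and less of it per cell cannot be told apart.

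The fall of EGFR in the EZH2 series moved with the library. Without siEZH2-1 replicate 2 the adjusted p for the mean was 0.0524, without siNC replicate 1 it was 0.138 and without siNC replicate 2 it was 0.0528. The call for siEZH2-1 was lost without siEZH2-1 replicate 2 (adjusted p = 0.105) and without siNC replicate 1 (adjusted p = 0.095), whereas siEZH2-2 passed without its own replicate 2 (log2 -0.50, adjusted p = 0.0333). The mean also missed the threshold with no filter on low genes (adjusted p = 0.126) and with both siRNAs pooled (adjusted p = 0.0763). In each of the 3 groups the library with the larger column sum of FPKM had the lower EGFR, and the same held for MET, TGFA and DUSP6. With that sum as a covariate, an alternative chosen after seeing the data, the log2 fold change of EGFR was -0.20 (adjusted p = 0.0151), that of MET -0.53 (adjusted p = 0.00154) and that of DUSP6 -0.82 (adjusted p = 0.00226).

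**Figure D3:**
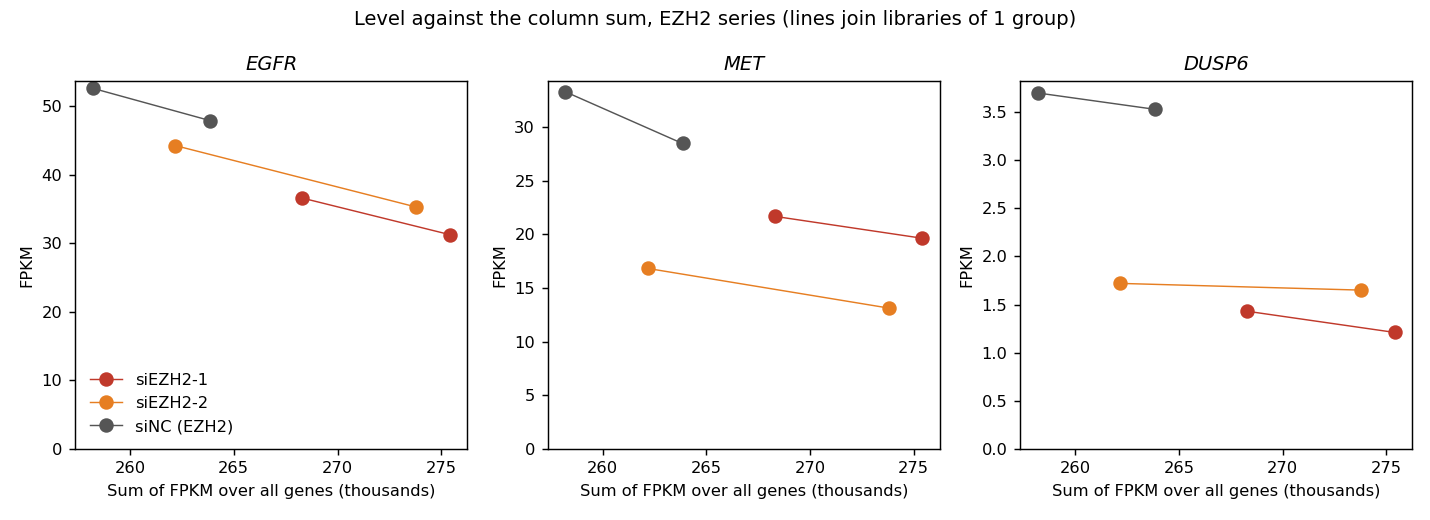
Level of EGFR, MET and DUSP6 in FPKM (axes from 0) against the sum of FPKM over all genes in the 6 libraries of the EZH2 series, with lines joining the 2 libraries of a group. Every line slopes down, and the siNC points lie above the siRNA points for each gene.

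EGFR in the LAT1 series was at 31.65 FPKM in both siLAT1-2 libraries, 36.80 and 36.28 FPKM with siLAT1-3 and 41.60 and 42.23 FPKM with siNC. The 3 groups did not overlap, and siLAT1-2 was lowest. The means were 75.5% and 87.2% of siNC, a log2 fold change of -0.39 (limma adjusted p = 1.3e-04) and -0.19 (adjusted p = 0.00306), with -0.29 ± 0.0247 for the mean of both (adjusted p = 2.48e-04). The siRNAs differed by 0.20 log2 (95% interval 0.13 to 0.27, adjusted p = 0.00309). These calls held when any 1 library was left out. All 4 siRNA libraries of this series had a smaller column sum (245634 to 250247) than both siNC libraries (251457 and 252774), so the sum and the treatment cannot be told apart here. With the sum as a covariate the mean change of EGFR was -0.32 (adjusted p = 0.0536). In that fit 0 of the 9 genes were called with the mean by limma, against 4.04% of all genes. An unadjusted p under 0.05 was reached by 3 of the 9 and by 2451 of all 11678 genes.

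MET (ENSG00000105976), the receptor for hepatocyte growth factor, was at 21.69 and 19.65 FPKM with siEZH2-1, 13.13 and 16.83 FPKM with siEZH2-2 and 33.31 and 28.49 FPKM with siNC. The groups did not overlap, and siEZH2-2 was lowest. At 66.9% and 48.5% of siNC, the log2 fold change was -0.78 ± 0.110 for the mean (limma adjusted p = 0.00366), -0.56 with siEZH2-1 (adjusted p = 0.0218) and -1.0 with siEZH2-2 (adjusted p = 0.00269). The mean and siEZH2-2 stayed called when any 1 library was left out. The call for siEZH2-1 was lost without siEZH2-1 replicate 2 (adjusted p = 0.115) or siNC replicate 1 (adjusted p = 0.107) and with no filter (adjusted p = 0.123). The siRNAs differed by -0.45 log2 (95% interval -0.75 to -0.14), which did not pass (adjusted p = 0.0594).

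MET in the LAT1 series was at 48.39 and 47.19 FPKM with siLAT1-2, 51.91 and 52.71 FPKM with siLAT1-3 and 55.30 and 56.48 FPKM with siNC. Again the groups did not overlap, and here the first siRNA was the lower one. MET stood at 85.5% and 93.6% of siNC, and the log2 fold change was -0.16 ± 0.0255 for the mean (limma adjusted p = 0.00381), -0.22 with siLAT1-2 (adjusted p = 0.0018) and -0.09 with siLAT1-3 (adjusted p = 0.0509). The siRNAs differed by 0.13 log2 (adjusted p = 0.0204), a call lost without siLAT1-2 replicate 2 (adjusted p = 0.0947), siLAT1-3 replicate 1 (0.0550) or siLAT1-3 replicate 2 (0.0896).

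ERBB2 (ENSG00000141736), the preferred partner of the other ERBB receptors, passed in no contrast. It was at 7.94 and 7.88 FPKM with siEZH2-1, 7.70 and 7.36 FPKM with siEZH2-2 and 6.48 and 6.98 FPKM with siNC. It was at 7.17 and 7.30 FPKM with siLAT1-2, 8.12 and 7.64 FPKM with siLAT1-3 and 7.05 and 6.95 FPKM with siNC of the LAT1 series. All siRNA libraries were higher than their siNC libraries in both series. The log2 difference for the mean was 0.17 (95% interval 0.04 to 0.31, limma adjusted p = 0.0599) in the EZH2 series and 0.10 (95% interval -0.0045 to 0.20, adjusted p = 0.125) in the LAT1 series.

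ERBB3 (ENSG00000065361), the receptor of neuregulins, was moved in opposite directions by the siRNAs of a pair. It was at 11.85 and 12.17 FPKM with siEZH2-1, 6.80 and 6.76 FPKM with siEZH2-2 and 10.13 and 9.93 FPKM with siNC. The first siRNA lay above siNC and the second below it, with no overlap. The log2 fold change was 0.24 with siEZH2-1 (limma adjusted p = 0.0252) and -0.50 with siEZH2-2 (adjusted p = 0.00176), and the siRNAs differed by -0.74 ± 0.0568 (95% interval -0.88 to -0.61, adjusted p = 7.22e-04). The fall with siEZH2-2 and the difference were called under every alternative run, whereas the rise with siEZH2-1 was lost when any 1 of the siEZH2-1 or siNC libraries was left out (adjusted p = 0.0841 to 0.155). For the mean, in which the siRNAs offset each other, the value was -0.13 (adjusted p = 0.0862).

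ERBB3 in the LAT1 series was at 11.04 and 11.64 FPKM with siLAT1-2, 7.88 and 8.68 FPKM with siLAT1-3 and 9.95 and 10.05 FPKM with siNC. The first siRNA lay above siNC and the second below it here too. The fall with siLAT1-3 was called (log2 -0.25, limma adjusted p = 0.0157) and the value with siLAT1-2 did not pass (log2 0.17, adjusted p = 0.0596). The siRNAs differed by -0.41 ± 0.0551 (95% interval -0.54 to -0.28, adjusted p = 0.00243), and this call was not lost under any alternative. The call for siLAT1-3 was lost without siLAT1-3 replicate 1 (adjusted p = 0.0676), without siNC replicate 1 (0.0723), without siNC replicate 2 (0.0810) and with no filter (0.0672). With the column sum as a covariate the value was -0.13 (adjusted p = 0.356).

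TGFA (ENSG00000163235), which encodes the EGFR ligand transforming growth factor alpha, was at 14.60 and 14.22 FPKM with siEZH2-1, 11.29 and 12.43 FPKM with siEZH2-2 and 12.14 and 11.36 FPKM with siNC. The siEZH2-1 libraries were the highest, and siEZH2-2 overlapped siNC. TGFA was called higher with siEZH2-1 (log2 0.27, limma adjusted p = 0.0299), whereas the siEZH2-2 value was 0.01 (adjusted p = 0.920). The difference between the siRNAs was -0.26 (adjusted p = 0.0475). Both calls were fragile: the rise was lost without any 1 of the siEZH2-1 or siNC libraries (adjusted p = 0.0757 to 0.122) and the difference without any 1 of the 6 (adjusted p = 0.0676 to 0.177).

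With the LAT1 siRNAs TGFA was at 6.13 and 6.10 FPKM with siLAT1-2, 10.21 and 9.86 FPKM with siLAT1-3 and 6.63 and 6.81 FPKM with siNC. The siLAT1-3 libraries stood apart at 149% of the siNC mean, with siLAT1-2 just below siNC. The rise with siLAT1-3 was 0.52 log2 (limma adjusted p = 3.36e-04), the value with siLAT1-2 was -0.12 (adjusted p = 0.0925), and the siRNAs differed by 0.63 ± 0.0456 (95% interval 0.52 to 0.74, adjusted p = 1.76e-04). The mean of both was 0.20 (adjusted p = 0.00902), so this rise of the mean came with siRNAs of opposite sign, and it was lost without siNC replicate 1 (adjusted p = 0.0731).

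EREG (ENSG00000124882), whose product binds EGFR and ERBB4, was at 0.01 to 0.03 FPKM in all 6 libraries of the EZH2 series, which is 1 to 3 steps of the 2 decimals given, and was not tested there. In the LAT1 series it was at 4.37 and 4.85 FPKM with siLAT1-2, 6.02 and 5.41 FPKM with siLAT1-3 and 3.91 and 3.88 FPKM with siNC. The 3 groups did not overlap, and siLAT1-3 was highest at 147% of siNC. The log2 fold change was 0.32 ± 0.0616 for the mean (limma adjusted p = 0.00744) and 0.45 with siLAT1-3 (adjusted p = 0.00384), and it did not pass with siLAT1-2 (log2 0.20, adjusted p = 0.0779). Without siNC replicate 1 or 2 the mean missed the threshold (adjusted p = 0.0530 and 0.0566). The difference of 0.26 between the siRNAs (adjusted p = 0.0384) was lost without siLAT1-2 replicate 1, siLAT1-3 replicate 1, siNC replicate 1 or siNC replicate 2 (adjusted p = 0.0708 to 0.166).

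HBEGF (ENSG00000113070), heparin-binding EGF-like growth factor, was at 2.76 and 2.86 FPKM with siEZH2-1, 2.48 and 2.00 FPKM with siEZH2-2 and 3.27 and 3.12 FPKM with siNC. All siRNA libraries were below siNC. HBEGF was called lower with siEZH2-2 (log2 -0.38, limma adjusted p = 0.0307), a call lost without any 1 library but siEZH2-2 replicate 1 (adjusted p = 0.0529 to 0.143), and the mean of both siRNAs did not pass (log2 -0.26, adjusted p = 0.0566). In the LAT1 series it was at 1.94 and 1.68 FPKM with siLAT1-2, 2.49 and 3.03 FPKM with siLAT1-3 and 2.21 and 2.36 FPKM with siNC. The first siRNA lay below siNC and the second above it, neither passed, and their difference was called (0.42 ± 0.0989 log2, adjusted p = 0.0227) but not without siLAT1-2 replicate 2 (adjusted p = 0.104) or siLAT1-3 replicate 2 (0.108).

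AREG (ENSG00000109321), which encodes amphiregulin, stayed under the filter in both tables. It was at 0.69 and 0.99 FPKM with siEZH2-1, 0.87 and 0.54 FPKM with siEZH2-2 and 1.03 and 0.99 FPKM with siNC. It was at 0.43 and 0.09 FPKM with siLAT1-2, 0.52 and 0.41 FPKM with siLAT1-3 and 0.40 and 0.59 FPKM with siNC of the LAT1 series. The siEZH2-2 libraries lay below both siNC libraries, and each of the other siRNA groups overlapped or touched siNC. Fitted with no filter, the mean of the EZH2 siRNAs differed from siNC by -0.19 log2 (limma adjusted p = 0.517).

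ERRFI1 (ENSG00000116285) encodes MIG6, which binds and blocks the EGFR kinase. It was at 15.27 and 13.72 FPKM with siEZH2-1, 12.66 and 12.60 FPKM with siEZH2-2 and 14.29 and 13.45 FPKM with siNC, and no contrast passed (mean log2 -0.03, 95% interval -0.18 to 0.11, limma adjusted p = 0.702). In the LAT1 series it was at 11.82 and 12.61 FPKM with siLAT1-2, 10.68 and 11.80 FPKM with siLAT1-3 and 14.50 and 13.37 FPKM with siNC. All siRNA libraries were below siNC there. The mean fell by 0.23 on the log2 scale (adjusted p = 0.0177) and siLAT1-3 by 0.29 (adjusted p = 0.0151), and siLAT1-2 did not pass (log2 -0.18, adjusted p = 0.0754). The call for the mean was lost without siNC replicate 1 (log2 -0.18, adjusted p = 0.138) and with no filter (adjusted p = 0.0916), and with the column sum as a covariate the value was 0.012. The call for siLAT1-3 was lost without siLAT1-3 replicate 1 (adjusted p = 0.0722) or siNC replicate 1 (adjusted p = 0.0936), and the value with the covariate was -0.11 (adjusted p = 0.357).

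DUSP6 (ENSG00000139318), a phosphatase that switches off ERK and is itself induced by ERK signaling, had the largest change of the 8 genes tested with the mean of the EZH2 siRNAs. It was at 1.43 and 1.21 FPKM with siEZH2-1, 1.65 and 1.72 FPKM with siEZH2-2 and 3.70 and 3.53 FPKM with siNC. All siRNA libraries were far below siNC, at 36.5% and 46.6% of its mean. The log2 fold change was -0.89 ± 0.0759 for the mean (limma adjusted p = 6.55e-04), -0.99 with siEZH2-1 (adjusted p = 8.06e-04) and -0.78 with siEZH2-2 (adjusted p = 0.00173), and the siRNAs differed by 0.21 (95% interval 0.0022 to 0.42, adjusted p = 0.155). The pseudocount of 1 FPKM makes these values smaller than the ratio of levels at such low FPKM. The calls of the mean and of both siRNAs held under every alternative that tested the gene.

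With the LAT1 siRNAs DUSP6 was at 1.54 and 1.51 FPKM with siLAT1-2, 2.29 and 1.89 FPKM with siLAT1-3 and 2.70 and 2.79 FPKM with siNC. The groups did not overlap, and siLAT1-2 was lowest. At 55.6% and 76.1% of siNC, DUSP6 fell with the mean (log2 -0.42 ± 0.0775, limma adjusted p = 0.00636) and with siLAT1-2 (log2 -0.57, adjusted p = 0.0036), and siLAT1-3 did not pass (log2 -0.28, adjusted p = 0.054). Without siNC replicate 2 the mean missed the threshold (adjusted p = 0.0564).

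**Figure D4:**
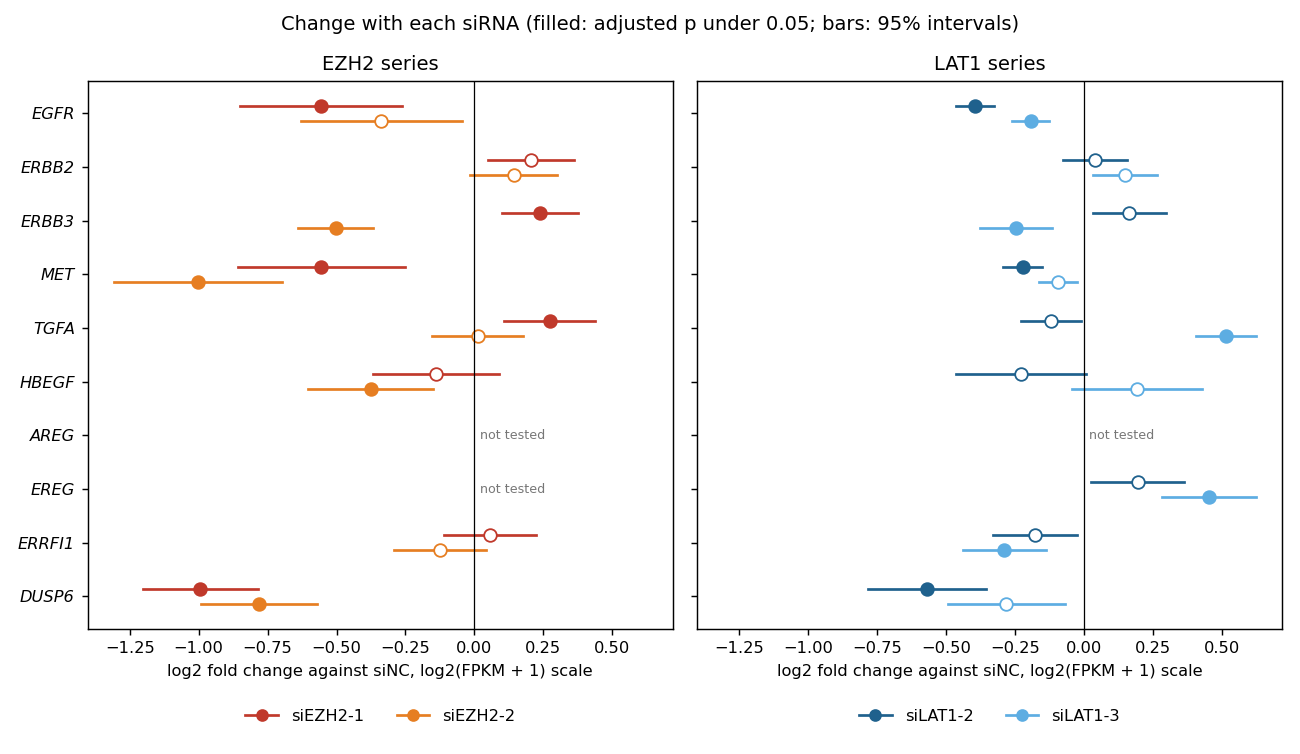
log2 fold change against siNC, on the log2(FPKM + 1) scale, with each siRNA of the EZH2 series (left) and the LAT1 series (right); bars are 95% intervals and filled points passed at an adjusted p under 0.05. EGFR, MET and DUSP6 lie left of 0 with all 4 siRNAs, while the siRNAs of a pair lie on opposite sides of 0 for ERBB3 in both series.

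Counted per siRNA, siEZH2-1 gave 2 genes called higher (ERBB3 and TGFA) and 3 lower (EGFR, MET and DUSP6) of 8, against 15.9% and 11.4% of all genes. Without siEZH2-1 replicate 2 or siNC replicate 1, siEZH2-1 gave 1 call (DUSP6), and without siEZH2-1 replicate 1 or siNC replicate 2 it gave 3 (EGFR, MET and DUSP6). siEZH2-2 gave 0 higher and 4 lower (ERBB3, MET, HBEGF and DUSP6), against 13.9% and 10.9%. At an unadjusted p under 0.05 limma gave 0 and 5 for siEZH2-2, and 4458 of all 11585 genes in either direction. siLAT1-2 gave 0 higher and 3 lower (EGFR, MET and DUSP6) of 9, against 18.6% and 13.9%. At an unadjusted p under 0.05 limma gave 2 and 5 for siLAT1-2, and 5130 of all 11678 genes in either direction. siLAT1-3 gave 2 higher (TGFA and EREG) and 3 lower (EGFR, ERBB3 and ERRFI1), against 17.9% and 13.6%, and 3 calls in all without siNC replicate 1 (EGFR, TGFA and EREG). Both siRNAs of a series are compared with the same siNC libraries. Set against each other, siEZH2-2 was higher than siEZH2-1 for 0 of 8 genes and lower for 2 (ERBB3 and TGFA), against 7.40% and 8.86% of all genes. At an unadjusted p under 0.05 in limma the counts were 1 and 5, and 3635 of all 11585 genes in either direction. The call of TGFA was lost when any 1 library was left out, whereas that of ERBB3 was kept. siLAT1-3 was higher than siLAT1-2 for 5 of 9 (EGFR, MET, TGFA, HBEGF and EREG) and lower for 1 (ERBB3), against 12.4% and 13.1%.

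Other genes of the pathway were counted from 9 lists with 72 genes besides the 10 above. The lists were written with earlier results of these data known. A count above the share of all genes is therefore a description and not independent support. In the EZH2 series 61 were tested with the mean of both siRNAs: 27 were called lower and 4 higher, against 13.0% and 17.0% of all genes, with a median log2 fold change of -0.21 against 0.03 for all genes. Leaving out 1 library gave 14 to 27 called lower, the fewest without siNC replicate 1 (4.80% of all genes called lower), and it gave 16 without siNC replicate 2 (7.35%). The 4 called higher became 2 without siEZH2-1 replicate 2 or siNC replicate 1. With no filter 14 of 70 were called lower (2.48% of all genes) and with both siRNAs pooled 10 of 61 (2.81%). Of the adaptors and exchange factors that pass the signal to RAS, 2 of 7 were called lower and the other 5 did not pass; GRB2, which links the receptor to SOS, fell from 26.5 ± 0.269 FPKM to 17.3 ± 0.721 and 18.6 ± 0.170 FPKM (log2 -0.54, limma adjusted p = 7.0e-04). Called genes outside the naming rule, named after their values were seen, were MST1R, NRG1, ADAM17 and SHC1 among receptors, ligands, shedding proteases and adaptors, all lower: MST1R (-0.22), NRG1 (-0.31), ADAM17 (-0.37) and SHC1 (-0.17) in log2 fold change. Without siNC replicate 1 or siNC replicate 2 the calls of all 4 were lost (limma adjusted p = 0.0515 to 0.219), that of MST1R was lost without any 1 of the 6 libraries, and that of SHC1 without any 1 but siEZH2-2 replicate 2. NRG1 was at -0.01 with siEZH2-1 (adjusted p = 0.884) and -0.61 with siEZH2-2 (adjusted p = 0.00152), and these differed (adjusted p = 0.00253). SHC1 was at -0.05 (adjusted p = 0.498) and -0.29 (adjusted p = 0.0114), which also differed (adjusted p = 0.0324). MAPK3, which encodes ERK1 and was also named after its values were seen, was called higher, by 0.28 on the log2 scale, a call lost without siEZH2-1 replicate 2, siNC replicate 1 or siNC replicate 2 (adjusted p = 0.0506 to 0.104). Among 7 for PI3 kinase and AKT, 1 passed in each direction. AKT1, the kinase of that branch, rose from 5.96 ± 0.0424 FPKM to 8.24 ± 0.764 and 8.98 ± 0.127 FPKM (a log2 change of 0.46, adjusted p = 0.00354).

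The inhibitors of the pathway other than the members gave 6 of 9 called lower in the EZH2 series, and the other 3 did not pass (median log2 fold change of the 9 -0.39), against 13.0% of all genes called lower. SPRY2 and SPRY4, Sprouty inhibitors of receptor signaling, each fell by 0.53 on the log2 scale (limma adjusted p = 0.00347 and 0.00428), from 2.33 ± 0.0849 FPKM to 1.24 ± 0.0566 and 1.36 ± 0.0707 FPKM and from 2.01 ± 0.141 FPKM to 1.14 ± 0.0566 and 1.02 ± 0.0424 FPKM. SH3KBP1, an adaptor in the uptake of EGFR from the surface, fell by 0.32 (adjusted p = 0.00385) and missed the threshold with both siRNAs pooled (adjusted p = 0.0892). Of the dual-specificity phosphatases other than DUSP6, 4 of 6 were called lower, against the same 13.0%, and the other 2 did not pass (median -0.26). DUSP4 fell from 6.96 ± 0.537 FPKM to 2.67 ± 0.0566 and 2.98 ± 0.184 FPKM (a log2 change of -1.06, adjusted p = 3.03e-04). DUSP7 fell from 15.8 ± 1.03 FPKM to 10.2 ± 0.276 and 11.8 ± 0.311 FPKM (a log2 change of -0.49, adjusted p = 0.00187). Fewer genes of both lists were called lower without siNC replicate 1, siNC replicate 2 or siEZH2-1 replicate 2. The share of all genes called lower fell in these fits too.

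Transcripts that ERK signaling induces gave 10 of 16 called lower and 1 higher in the EZH2 series (median -0.27), against 13.0% and 17.0% of all genes. CCND1, cyclin D1, had a mean of 110 ± 4.97 FPKM in siNC, 13.9 ± 0.834 FPKM in siEZH2-1 and 40.9 ± 3.29 FPKM in siEZH2-2. It fell by 2.15 on the log2 scale (limma adjusted p = 4.41e-05), and the siRNAs differed by 1.49 (adjusted p = 1.78e-04). HMGA2, a chromatin protein of embryonic and tumour cells, fell by 0.95 (adjusted p = 4.36e-04) and, at the same log2 value, missed the threshold with both siRNAs pooled (adjusted p = 0.0826). ETV5, an ETS factor, fell by 0.82 (adjusted p = 7.89e-04). IER2, the 1 gene called higher, named after its values were seen, rose from 4.63 ± 0.0424 FPKM to 9.31 ± 0.728 and 7.67 ± 0.509 FPKM (a log2 change of 0.75, adjusted p = 7.83e-04). Leaving out 1 library gave as many or fewer called lower of the 16, and the share of all genes called lower fell in each of these fits.

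**Figure D5:**
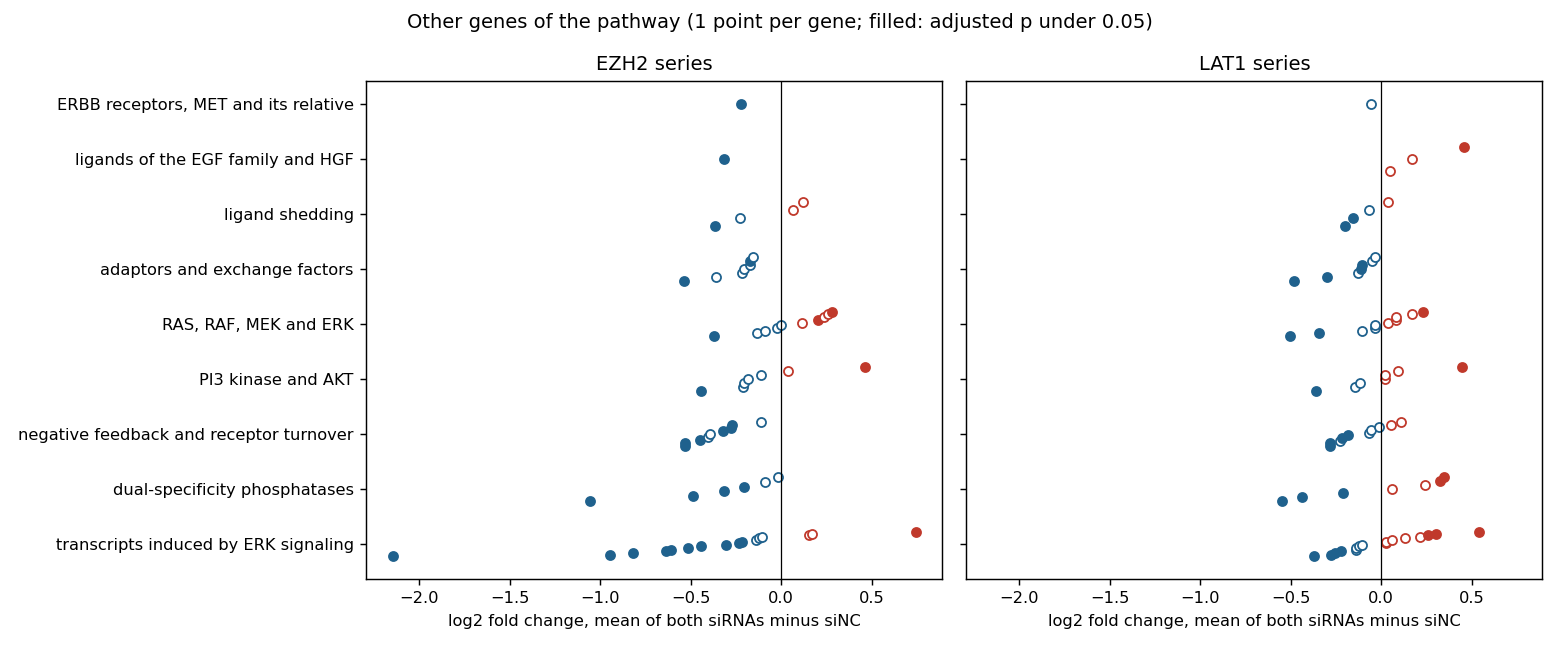
log2 fold change, mean of both siRNAs minus siNC, of the other tested genes of 9 pathway lists in the EZH2 series (left) and the LAT1 series (right), 1 point per gene, filled where the adjusted p was under 0.05. In the EZH2 series 27 of 61 genes are filled left of 0 and 4 right of it, and in the LAT1 series 20 of 65 and 8.

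With the LAT1 siRNAs 65 of the 72 genes were tested: 20 were called lower and 8 higher, against 15.3% and 19.3% of all genes, with a median of -0.05 against 0.01 for all genes. Fewer were called lower without siNC replicate 1 or siNC replicate 2, as among all genes, and with both siRNAs pooled 6 were (2.74% of all genes). With the column sum as a covariate 1 was called lower and 0 higher, against 1.63% and 2.41% of all genes. At an unadjusted p under 0.05 in limma that fit gave 13 lower and 8 higher, and 2451 of all 11678 genes in either direction. Of the inhibitors other than the members 4 of 10 were called lower and the other 6 did not pass; without siNC replicate 1 or siNC replicate 2 0 of the 10 passed in limma (5 and 4 at an unadjusted p under 0.05). Of the phosphatases 3 of 7 were lower and 2 higher. Among the phosphatases DUSP9 fell by 0.44 on the log2 scale (limma adjusted p = 0.00441), while DUSP1 rose by 0.35 (adjusted p = 0.00504) and DUSP2 by 0.32 (adjusted p = 0.0182; 0.118 without siNC replicate 1 and 0.0707 without siNC replicate 2). Of the transcripts induced by ERK signaling 4 of 16 were called lower and 3 higher, with 2 lower when siNC replicate 1 or siNC replicate 2 was left out. CCND1 fell from 249 ± 8.34 FPKM to 175 ± 8.0 and 211 ± 4.11 FPKM (a log2 change of -0.37, adjusted p = 4.23e-04), whereas IER2 and JUN, immediate early genes, rose by 0.54 (adjusted p = 7.02e-04) and 0.30 (adjusted p = 5.46e-04).

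Nearer the receptor in the LAT1 series, NRG1, the neuregulin ligand of ERBB3, rose from 9.35 ± 0.700 FPKM to 12.8 ± 0.792 and 13.7 ± 0.290 FPKM (log2 0.46, limma adjusted p = 0.00103). Of the adaptors 4 of 7 were called lower and the other 3 did not pass, against 15.3% of all genes called lower. Among those called was GAB1, a docking protein of EGFR and MET (log2 -0.48, limma adjusted p = 0.00148). With both siRNAs pooled 1 of the 7 was called lower, against 2.74% of all genes. Of the shedding proteases and their regulators 2 of 4 were called lower, against the same 15.3%. These were ADAM10 (-0.16) and RHBDF1 (-0.20) in log2 fold change, named after their values were seen. Both calls were lost without siNC replicate 1 or siNC replicate 2 (adjusted p = 0.0565 to 0.195) and with both siRNAs pooled (0.529 and 0.0961), and that of RHBDF1 without any 1 library but siLAT1-2 replicate 1. ADAM10 was at 0.048 with siLAT1-2 (adjusted p = 0.338) and -0.36 with siLAT1-3 (adjusted p = 5.0e-04), and the siRNAs differed (adjusted p = 3.61e-04). The RAS, RAF, MEK and ERK list had 1 of 10 higher and 2 lower, and that of PI3 kinase and AKT 1 of 7 in each direction. Of all genes 19.3% were called higher and 15.3% lower. AKT1 rose from 7.38 ± 0.00707 FPKM to 11 ± 0.304 and 9.85 ± 0.403 FPKM (a log2 change of 0.45, adjusted p = 3.56e-04). MAPK3, which encodes ERK1, rose by 0.23 (adjusted p = 0.00359), while NRAS fell by 0.34 (adjusted p = 6.98e-04) and PIK3CB, a catalytic subunit of PI3 kinase, by 0.36 (adjusted p = 8.81e-04). CBL, the ligase that marks active EGFR for breakdown, fell by 0.22 (adjusted p = 0.0107; 0.0726 and 0.0706 without siNC replicate 1 and 2) and SPRED2, an inhibitor of RAF activation, by 0.28 (adjusted p = 0.0115; 0.0732 and 0.0770). With both siRNAs pooled NRAS (adjusted p = 0.194), MAPK3 (0.0592) and CCND1 (0.0665) missed the threshold. With the column sum as a covariate 0 of the 14 genes named in the LAT1 lists passed in limma, against 4.04% of all genes. An unadjusted p under 0.05 was reached by 12 of them, and by 2451 of all 11678 genes in that fit.

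Genes whose pattern was most like that of EGFR were sought over the 12 libraries, after each series was centred on its mean, among 4232 genes that averaged 10 FPKM or more in both tables. AHNAK, a giant scaffold protein, came first (Pearson r = 0.978), followed by CBLL1, an E3 ubiquitin ligase (r = 0.963), and FAM120A, an RNA-binding protein (r = 0.963). AHNAK had group means of 20.8, 25.2 and 30.5 FPKM with siEZH2-1, siEZH2-2 and siNC, and of 30.5, 35.8 and 41.5 FPKM with siLAT1-2, siLAT1-3 and siNC. The 6 group means of AHNAK fall in the same order within each series as those of EGFR. These points share libraries, depth and the column sum, and the correlation is a description.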

How the data were processed

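The authors deposited FPKM to 2 decimals in 1 table per series, with 1 column per RNA library. The builds hg19 and hg38 and the tools STAR, Bowtie, Bowtie2, SEACR, Picard and Trim Galore stand in the submitters' processing notes with no role given; the counting program, gene lengths and strand setting are not given in the sources used here. Depth was estimated from low FPKM values of short genes, of which 84.0% to 89.6% came out as whole reads within 0.12 reads. Each table was fitted alone with limma 3.58.1 (R 4.3.3, trend) on log2(FPKM + 1), keeping genes whose mean over 6 libraries reached 1 FPKM, with 1 group per siRNA and siNC. A count test was planned only for counts. siNC was set against the average of both siRNAs and against each one, and the siRNAs were compared with each other. The script was tested on simulated data. The members and gene lists were chosen with earlier results of these data known. Named genes were the 10 members, the siRNA targets, up to 3 genes per list with the largest change among those called with the mean and both siRNAs, and the 3 genes most like EGFR. Alternatives were no filter, a 5 FPKM filter, a pseudocount of 0.1, quantile normalization, a replicate block, pooled siRNAs, each library left out and, added after seeing the data, the log2 column sum as a covariate. Replicate numbers of siNC in the LAT1 series come from the descriptions, because the titles repeat 1 number. A second TGFA identifier was listed at 0 in all libraries and was not used. The 2 EZH2 CUT&Tag samples were not analysed here. Some values of the pathway lists are not reported here. Tables and plots were made with Python 3.11.15.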

Additional observations from a re-analysis of the deposited data

Results flagged for a closer look

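Of the 10 genes, those are listed here which the siRNAs of a pair put on opposite sides of siNC, with the difference itself called by limma. Some genes of the pathway lists also met this rule and are not listed. ERBB3 was higher with siEZH2-1 and lower with siEZH2-2 than siNC, and the siRNAs differed by -0.74 log2 (siEZH2-2 minus siEZH2-1, adjusted p = 7.22e-04). EZH2 itself differed between these siRNAs by -0.14 (limma adjusted p = 0.223) and SLC7A5 by 1.65 (limma adjusted p = 8.66e-05). Of all genes 7.40% were called higher and 8.86% lower between them. ERBB3 was also higher with siLAT1-2 and lower with siLAT1-3 than siNC, and these differed by -0.41 (siLAT1-3 minus siLAT1-2, adjusted p = 0.00243). TGFA was lower with siLAT1-2 and higher with siLAT1-3, a difference of 0.63 (adjusted p = 1.76e-04), and HBEGF likewise, a difference of 0.42 (adjusted p = 0.0227). SLC7A5, the target, differed between the LAT1 siRNAs by 0.36 (limma adjusted p = 8.03e-04). The causes of the differences listed here were not tested.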

How the results depend on the processing

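Of 1117 values of single genes under an alternative, 973 kept their direction and side of the threshold, 111 lost a call, 19 gained one and 14 changed sign. The number of members called, by limma at an adjusted p under 0.05, moved as follows. In the EZH2 series the mean gave 3 of 8, and 5 of 8 with the column sum as a covariate. Pooled it gave 2 of 8 and with no filter 2 of 10. With siEZH2-1 it was 5 of 8, and 2 of 10 with no filter. With siEZH2-2 it was 4 of 8, and 5 of 8 with the covariate. At the 5 FPKM filter siEZH2-2 gave 2 of 6, with HBEGF and DUSP6 not tested. The difference between the siRNAs gave 2 of 8, 1 of 10 with no filter and 4 of 8 with the covariate. Of all genes 30.0% were called with the EZH2 mean, 28.9% with the covariate, 9.95% pooled and 6.11% with no filter. In the LAT1 series the mean gave 6 of 9, and 0 of 9 pooled or with the covariate. At an unadjusted p under 0.05 in limma these fits gave 5 and 3, and 3215 and 2451 of all 11678 genes. With siLAT1-2 it was 3 of 9, and 0 of 9 with the covariate (4 at an unadjusted p under 0.05 in limma, as for 2116 of all 11678 genes). With siLAT1-3 it was 5 of 9, 7 of 9 with quantile normalization, 3 of 10 with no filter and 1 of 9 with the covariate. The difference gave 6 of 9, 3 of 10 with no filter and 3 of 9 with the covariate. Of all genes 34.5% were called with the LAT1 mean, 11.2% pooled and 4.04% with the covariate. Leaving out 1 library gave, in the same order, 2 to 4, 1 to 5, 3 to 4, 1 to 2, 3 to 6, 3 to 4, 3 to 5 and 4 to 5. With the replicate block siEZH2-1 gave 3, siEZH2-2 gave 3 (HBEGF lost, adjusted p = 0.0593), the siEZH2 difference 1 and the LAT1 difference 5 (EREG lost, adjusted p = 0.0618). Deviations of same-numbered libraries correlated at -0.353, 0.355 and -0.340 (EZH2 series) and at 0.0177, 0.0334 and 0.0826 (LAT1 series). The signs were mixed in the EZH2 series, and whether libraries of different groups were handled together was not tested. Signs changed for values that were not called, apart from ERRFI1 with the mean of the LAT1 siRNAs, which was 0.012 with the covariate. With the covariate, ERRFI1 became 0.024 for the EZH2 mean and 0.14 for siLAT1-2, HBEGF and ERBB3 became 0.061 and 0.12 for the LAT1 mean, and ERBB2 became -0.025 for siLAT1-2. Leaving out 1 library gave -0.074 to 0.0073 for ERRFI1 with the EZH2 mean, -0.014 to 0.13 for ERRFI1 with siEZH2-1, -0.052 to 0.076 for TGFA with siEZH2-2 and -0.069 to 0.034 for HBEGF with the LAT1 mean. The causes of these changes were not tested. Where a group is left with 1 library, that library is assumed to vary like the others. AREG, and EREG in the EZH2 series, lay under the filter; with none, the SE of the mean change of AREG was 0.126 and 0.137 log2 in the EZH2 and LAT1 series.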
